A study of Mus musculus with 8 samples.

Results

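The genes described here are 10 ligands and receptors of the tumor necrosis factor (TNF) superfamily: the ligands Tnf, Tnfsf8, Tnfsf9, Tnfsf10, Tnfsf12 and Tnfsf13b and the receptors Tnfrsf1a, Tnfrsf1b, Tnfrsf12a and Tnfrsf21. They were chosen by gene symbol from the 55291 rows of the count table, and all 10 were among the 19470 genes that passed the filter on low counts. RNA was sequenced from the lumbar spinal cord of 8 male C57BL/6J mice. The comparison asks what changes in the cord of an amyotrophic lateral sclerosis model when microglia lose Ager, the gene of RAGE, which binds advanced glycation end products and several danger signals.

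The Ager-deleted group was 4 SOD1G93A Ager fl/fl Cx3cr1Cre/+ mice (E1776, E5231, E5248 and E5568), and the Cre control group was 4 SOD1G93A Ager+/+ Cx3cr1Cre/+ mice (E5386, E5642, E6578 and E6732). Both groups therefore carried the human mutant SOD1 transgene and a tamoxifen-inducible Cre in 1 Cx3cr1 allele, and both received 5 daily intraperitoneal injections of tamoxifen (0.2 μg), at 12 weeks of age by the labels and at 90 days by the study's methods. The labels give an age of 120 days at collection, whereas the study's methods describe collection at a humane end point. Cre acts in cells that express Cx3cr1, which are microglia and other myeloid cells, but the RNA came from the whole cord. Each library is a separate animal. Total counts per mouse were 31148047 to 40324897, so that 3 counts, taken as the floor of detection, correspond to at most 0.0975 CPM (counts scaled to a library of 1e6). This floor covers counting error only.

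TNF superfamily ligands are mostly membrane proteins that act as trimers and can be shed by proteases such as Adam17. Their receptors recruit TRAF adaptors, which lead to NF-kB, or, through a death domain, Fadd and Casp8, which lead to apoptosis. In the spinal cord, microglia and infiltrating myeloid cells are well known sources of Tnf, and astrocytes, neurons and oligodendrocytes carry receptors.

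The control libraries E5386, E5642 and E6732 stood apart in transcripts of other tissues, and E5386 also had very low Schwann cell transcripts. Skeletal muscle markers summed to 1365 CPM in E5386 and 2005 CPM in E5642, against 143.5 to 167 CPM in the other 6 mice, with Pygm as the most abundant marker; Myh4 reached 86.1 CPM in E5386 and 96.9 CPM in E5642, against at most 3.11 CPM elsewhere. The adipocyte marker Fabp4 was at 109 CPM in E5386 and at most 6.39 CPM elsewhere. The liver gene Alb was at 452 CPM in E6732 and below 1 CPM in the other 7 mice. In E5386 the Schwann cell gene Prx was at 1.29 CPM, against 38.8 to 143 CPM in the other mice, and Pmp2 had 0 counts. For some genes, results are also given without E5386 and E5642 or with single mice left out.

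Ager itself stood at 0.889 CPM in E1776, 1.51 in E5231, 1.02 in E5248 and 1.34 in E5568 among the Ager-deleted cords, and at 1.53 CPM in E5386, 2.22 in E5642, 2.18 in E6578 and 2.41 in E6732 among the control cords. The groups did not overlap, although E5231 and E5386 were nearly equal, and transcript remained in every Ager-deleted cord (log2 fold change −0.81 ± 0.22, SE; edgeR exact test, adjusted p = 0.252; exact two-sided permutation test over 70 assignments of 4 and 4 mice, p = 0.0286, the smallest it can give, but 0.0571 when scaled by library size only). Over all 19470 genes the edgeR exact test called 14 at an adjusted p of 0.05 (0.0719%), and the edgeR quasi-likelihood test called 1 (0.00514%). Of the 14 calls, 3 were skeletal muscle markers, Myh4 among them, from the list that was high in the controls E5386 and E5642. Neither test called any of the 10 TNF superfamily genes. Both tests gave 1 of the 10 an unadjusted p under 0.05, where the exact test did so for 829 genes in all (4.26%).

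Tnf, the founding cytokine of the family, lies at chr17:35199381-35202007 on the minus strand (GRCm38, mm10), 598445 bases from Ager on the same chromosome, inside the major histocompatibility region and next to Lta and Ltb. The 250 bases upstream of its start (RefSeq, GRCm38.p6, chr17:35202008-35202257, minus strand, 5′ to 3′) are shown as the promoter of the family's namesake, with TATAAA in capitals.

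Tnf promoter: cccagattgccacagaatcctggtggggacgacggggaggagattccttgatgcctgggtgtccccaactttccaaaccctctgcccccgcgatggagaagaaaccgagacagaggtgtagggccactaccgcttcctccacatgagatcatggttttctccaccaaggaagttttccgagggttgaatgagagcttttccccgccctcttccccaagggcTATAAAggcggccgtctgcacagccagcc

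In RefSeq, 8 of the 10 genes had a promoter entry, in 9 windows of 250 upstream bases. A kappa-B form (GGG, any 2 bases, TT, any 1 base, CC), searched on both strands, was in 0 of these 9 windows and in 4.11% of all 32851 windows. TATAAA, searched on both strands after the sequences had been read, was in 1 of the 9, that of Tnf, 29 bases upstream at its first base, and in 12.4% of all windows. The 2 motifs share no matched bases here, and a missing match says only that those letters are not in the window.

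Tnf stood at 1.04 CPM in E1776, 1.73 in E5231, 0.593 in E5248 and 0.465 in E5568 after Ager deletion, and at 1.23 CPM in E5386, 0.957 in E5642, 0.878 in E6578 and 0.73 in E6732 among controls. The Ager-deleted mice held both the highest and the lowest values, and the controls lay between them. Counts were 18 to 64 per mouse. The group means were 0.956 ± 0.569 CPM and 0.949 ± 0.21 CPM (SD, n = 4 each), with a log2 fold change of 0.01 ± 0.38 (SE; 95% interval −0.83 to 0.85). The interval leaves room for a difference of either sign. Its neighbours Lta and Ltb, the lymphotoxin genes, had log2 fold changes of −0.24 and −0.01.

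Tnfsf9, a costimulatory ligand on antigen-presenting cells, was the 1 gene of the 10 whose groups did not overlap. It was at 1.78, 1.78, 1.81 and 1.84 CPM across Ager-deleted cords and at 2.27, 2.72, 3.32 and 2.16 CPM across control cords (mice in that same order, here and for the genes that follow). All 4 Ager-deleted values lay under the lowest control, E6732, and the controls spread more widely, with E6578 highest. Over all tested genes the groups did not overlap for 3.88%, and for 1.91% the Ager-deleted mice were the lower group. The log2 fold change was −0.53 ± 0.16 (SE; 95% interval −0.90 to −0.17), with an adjusted p of 0.739 (edgeR exact test) or 0.705 (edgeR quasi-likelihood test). Each value rests on 64 to 102 counts. The 4 Ager-deleted values lay closer together (SD 0.027 CPM) than counting error alone would give (0.219 CPM), so their closeness is no measure of precision. Without the controls E5386 and E5642 the log2 fold change was −0.60. Tnfsf9 (chr17:57105325-57107757, plus strand) shares exon sequence with Gm11110 on the opposite strand, which had 48 to 71 counts per mouse. The strand setting of the counting is not given in the sources used here, so the value of Tnfsf9 is uncertain in that respect. Its receptor Tnfrsf9 had 2 to 12 counts per mouse and was not tested.

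Tnfsf8, the ligand of Tnfrsf8 on lymphocytes (chr4:63831308-63861347, minus strand), was at 3.96, 4.29, 2.29 and 2.79 CPM across Ager-deleted cords and at 4.9, 4.35, 4.36 and 4.18 CPM across control cords. All Ager-deleted mice but E5231 were below every control. This amounted to a log2 fold change of −0.42 ± 0.19 (SE; 95% interval −0.84 to 0.01; edgeR exact test, unadjusted p = 0.0639).

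Tnfsf10, a ligand of death receptors (chr3:27317028-27342427, plus strand), was at 2.9, 4.88, 2.74 and 2.33 CPM across Ager-deleted cords and at 4.02, 3.71, 4.52 and 5.01 CPM across control cords. Here too E5231 was the 1 Ager-deleted mouse among the controls, and the other 3 were below all 4. Tnfsf10 had a log2 fold change of −0.43 ± 0.22 (SE; 95% interval −0.92 to 0.07) with all mice in the edgeR exact test (unadjusted p = 0.0918). With 1 mouse left out it ran from −0.70 without E5231 (unadjusted p = 0.00102, adjusted p = 0.325) to −0.30 without E5568 (unadjusted p = 0.266, adjusted p = 1). Its receptor in the mouse, Tnfrsf10b, ran from 1.58 to 3.53 CPM with a log2 fold change of 0.28 ± 0.24 (SE).

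The remaining ligands were nearer to equal between groups. Tnfsf12, whose receptor is Tnfrsf12a (chr11:69686250-69695849, minus strand), ranged from 8.07 CPM in E5248 to 12.1 CPM in E5231, and the controls, at 9.23 to 11.2 CPM, lay inside that range (log2 fold change −0.07 ± 0.13, SE). Tnfsf12 shares exons with the readthrough gene Tnfsfm13 on the same strand (31 to 47 counts per mouse), so reads common to both cannot be assigned with certainty. Tnfsf13b, a survival factor of B cells (chr8:10006467-10039072, plus strand), ranged from 11 CPM in E5248 to 14.4 CPM in E5386 (log2 fold change −0.11 ± 0.09, SE), and its groups overlapped.

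**Figure D1:**
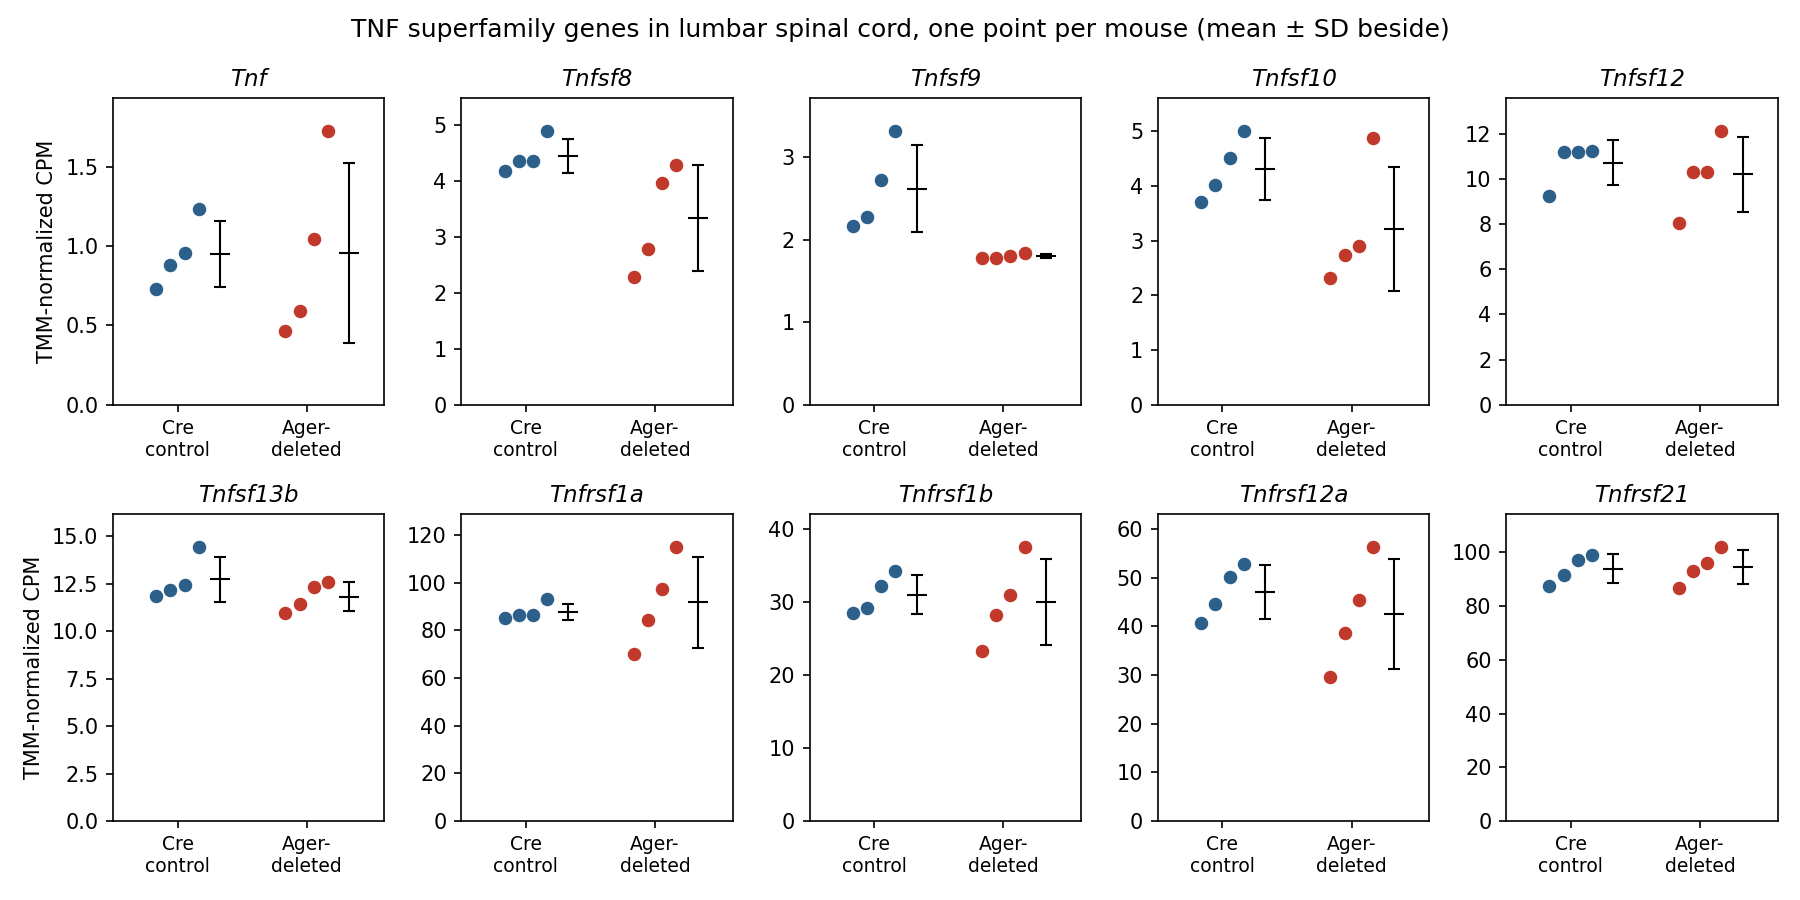
TMM-normalized CPM (linear axis from 0) of the 10 genes in each mouse, with blue points for Cre controls and red points for Ager-deleted mice, and the mean ± SD of 4 mice beside each group. Tnfsf9 is the gene whose groups do not overlap; for Tnf the Ager-deleted mice span 0.465 to 1.73 CPM, on both sides of the controls.

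Tnfrsf1a, the death domain receptor for Tnf that most cell types express (chr6:125349362-125362484, plus strand), was at 97.5, 115, 70.3 and 84.2 CPM across Ager-deleted cords and at 93, 86.3, 85.4 and 86.4 CPM across control cords. The Ager-deleted mice again lay on both sides of the controls, with E5231 highest and E5248 lowest. Its log2 fold change was 0.06 ± 0.13 (SE; 95% interval −0.22 to 0.34).

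Tnfrsf1b, the second Tnf receptor, which lacks a death domain and in the cord is found mainly on microglia (chr4:145213463-145246870, minus strand), was at 31, 37.5, 23.3 and 28.3 CPM across Ager-deleted cords and at 28.4, 34.3, 29.2 and 32.2 CPM across control cords. E5231 was again highest and E5248 lowest, and the groups overlapped. Its log2 fold change was −0.05 ± 0.13 (SE; 95% interval −0.33 to 0.24).

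Tnfrsf12a, the receptor of Tnfsf12, which is known to be induced by injury (chr17:23675445-23677468, minus strand), was at 45.3, 56.3, 29.5 and 38.7 CPM across Ager-deleted cords and at 44.7, 50.1, 52.9 and 40.6 CPM across control cords. The same mice, E5231 and E5248, marked the top and the bottom. Between groups this gave a log2 fold change of −0.15 ± 0.17 (SE; 95% interval −0.52 to 0.23). Skeletal muscle also uses this receptor; without the controls with muscle transcripts, E5386 and E5642, the log2 fold change was −0.14, and the 2 controls left were the highest (E6578) and the lowest (E6732) of the 4.

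Tnfrsf21, a death domain receptor of neurons and of the oligodendrocyte lineage (chr17:43016555-43089189, plus strand), was the most even of the 10. It was at 102, 86.7, 93.3 and 95.9 CPM across Ager-deleted cords and at 91.7, 87.4, 97.3 and 99.2 CPM across control cords, a 1.18-fold range. The groups overlapped throughout, and the 95% interval of the log2 fold change of 0.01 was −0.14 to 0.16.

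Most of the 10 genes varied more among the Ager-deleted mice than among the controls, and E5231 and E5248 often held the extremes. E5231 had the highest value of the 8 mice in 5 of the 10 genes, against 17.1% of all tested genes, and E5248 the lowest in 6 of the 10, against 18.1%. For 8 of the 10 genes the SD of log2(CPM + 1) was larger in the Ager-deleted group, as it was for 63.3% of all tested genes. The exceptions were Tnfsf9 and Tnfsf13b. These mice were singled out after their values were seen, and no test was made of the pattern.

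Microglial markers had the same mice at their extremes. Their sum, with Ctss as the most abundant of 14, was 3402, 3990, 2166 and 2581 CPM in E1776, E5231, E5248 and E5568 and 3321, 3340, 3124 and 2884 CPM in E5386, E5642, E6578 and E6732, and no marker was at 0. E5231 was highest in 12 of the 14 and E5248 lowest in 12. C1qa, for example, was at 724 CPM in E5231 and 319 CPM in E5248. Markers of disease-associated microglia, with Apoe the most abundant of 10, had E5231 highest in 7 and E5248 lowest in 5. They summed to 10970 CPM and 5811 CPM in these mice. Apoe alone was at 8827 CPM and 4401 CPM, so these sums mostly reflect 1 gene. Astrocyte markers ran from 13020 CPM in E5248 to 18520 CPM in E1776, and neuron markers from 3783 CPM in E5231 to 5127 CPM in E5248. In whole tissue, fewer cells of a type and less RNA per cell cannot be told apart, and the part of microglial content in the values of the 10 genes was not tested. Between groups the mean of log2(CPM + 1) over the microglial list differed by −0.09 (exact permutation test, 4 and 4 mice, p = 0.657). P2ry12, a gene of homeostatic microglia, was the 1 marker of that list whose groups did not overlap. It was at 24.2 to 32.6 CPM in Ager-deleted mice and 32.7 to 36.5 CPM in controls. Its log2 fold change was −0.32 ± 0.09 (SE), with an adjusted p of 0.507 in the edgeR exact test. Of all tested genes, 3.88% had groups without overlap, and in 1.91% the Ager-deleted mice were the lower group.

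**Figure D2:**
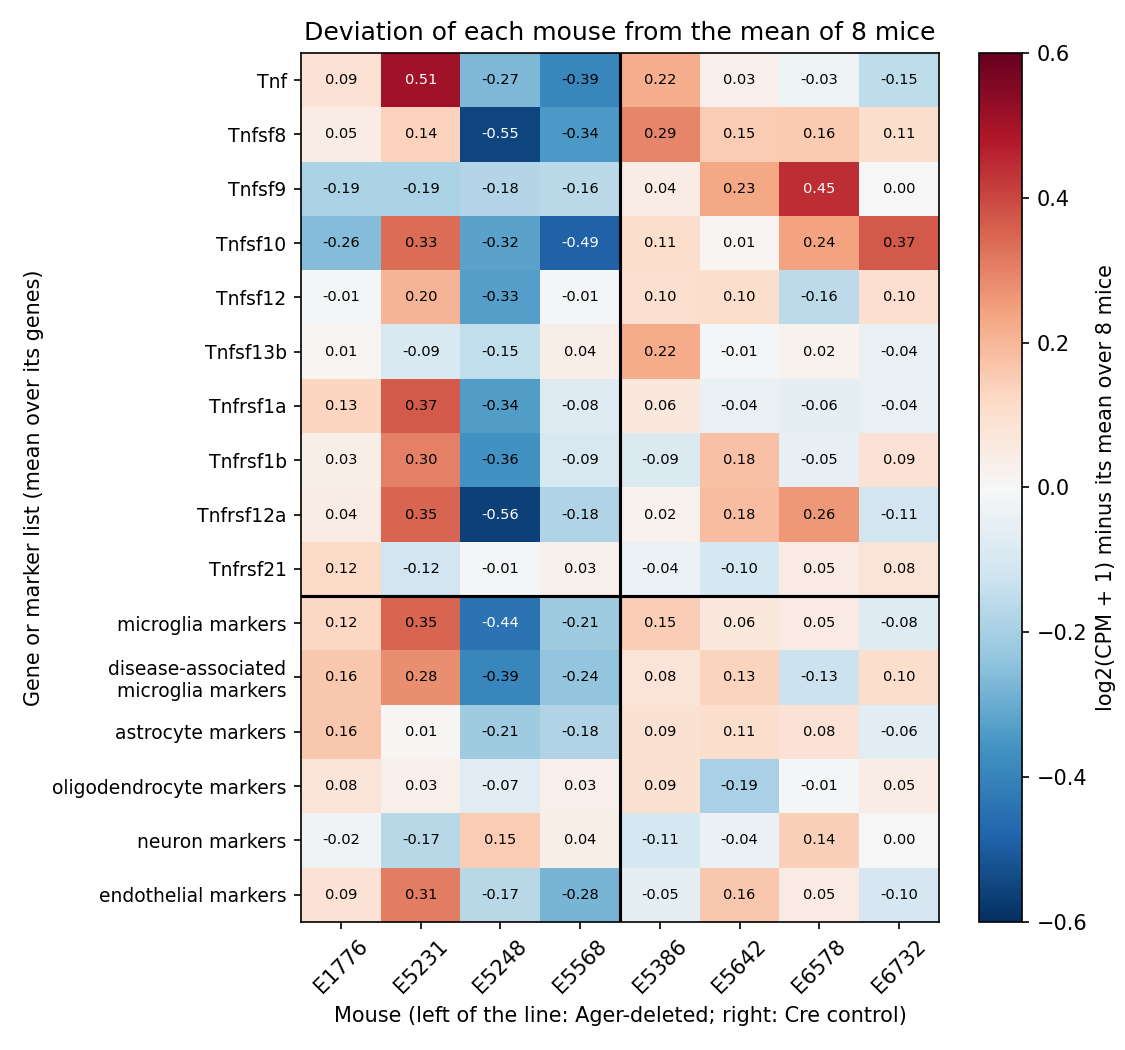
Deviation of each mouse (columns, Ager-deleted left of the line) from the mean of 8 mice on the log2(CPM + 1) scale, for the 10 genes and for the means of 6 marker lists (rows). E5231 is above the mean and E5248 below it for Tnf (0.51 and −0.27), Tnfsf8, Tnfsf10, Tnfsf12, Tnfrsf1a, Tnfrsf1b and Tnfrsf12a. The same holds for the microglial lists and the endothelial list (0.31 and −0.17). The astrocyte and oligodendrocyte lists have these signs with E5231 near 0, and the neuron list has the opposite signs. Tnfrsf21 is near 0 in every mouse.

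Levels of different genes were compared per kilobase of exon. The length was that of all annotated exons of a gene merged. It can exceed the length of the transcript in use, so the order and ratios are approximate. On this scale Tnfrsf1a was highest of the 10, with a mean level of 34.6 CPM per kilobase over 8 mice, followed by Tnfrsf12a at 23.2 and Tnfrsf21 at 22.9; the ranges over mice of Tnfrsf1a and Tnfrsf12a overlapped, as did those of Tnfrsf12a and Tnfrsf21. Tnfrsf1b (8) and Tnfsf12 (6.91) came next and overlapped each other. The level of Tnfsf13b was 1.79 CPM per kilobase and that of Tnfsf9 was 1.71, again with overlapping ranges. Tnfsf8 (1.02), Tnfsf10 (0.714) and Tnf (0.581) were lowest, each overlapping the next. No overlap was seen at 3 steps of this order, between Tnfrsf21 and Tnfrsf1b, between Tnfsf12 and Tnfsf13b, and between Tnfsf9 and Tnfsf8. The per-length level of Tnfrsf1a was 59.6 times that of Tnf. The order in the 2 groups differed only in neighbours that overlapped: Tnfrsf21 stood above Tnfrsf12a in Ager-deleted mice, and Tnfsf9 above Tnfsf13b in controls. Of the other 27 tested superfamily genes, Ltbr (15.8), Tnfrsf19 (14.9) and Relt (10.7 CPM per kilobase) ranked directly under the top 3.

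**Figure D3:**
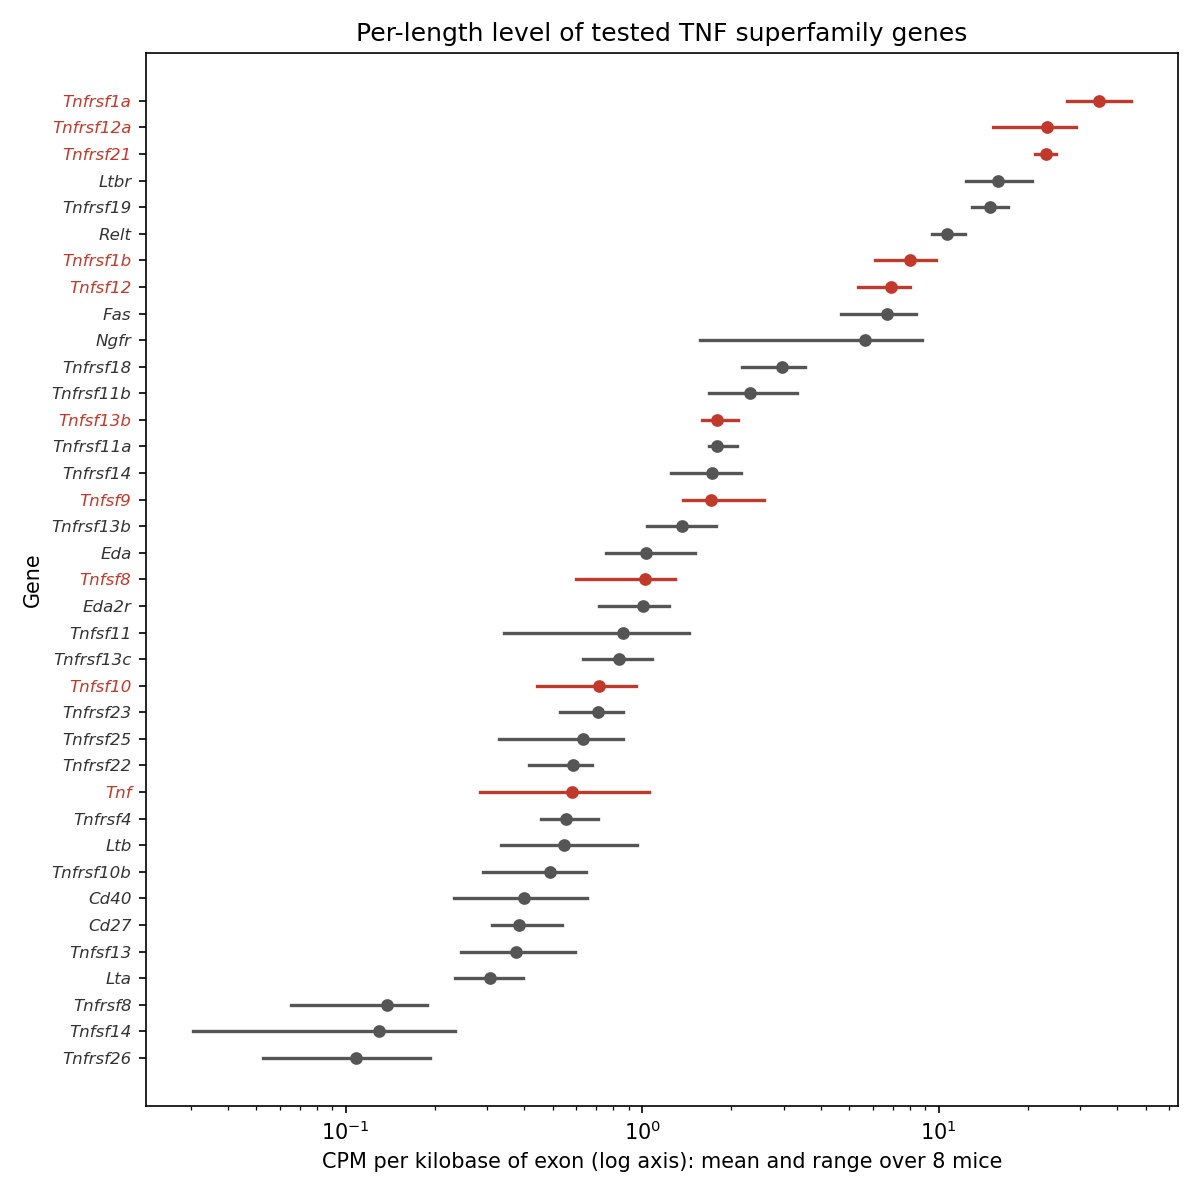
Level per length, as CPM per kilobase of exon on a log axis, of the 37 tested superfamily genes, with the mean (point) and range (line) over 8 mice and the 10 genes in red. Receptors fill the top 7 places, and Tnf is at 0.581 with a range of 0.284 to 1.05.

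The wider superfamily list held 46 genes, 18 ligands and 28 receptors, of which 12 ligands and 25 receptors were tested. None of the 37 was called by the edgeR exact test or the quasi-likelihood test, and 1, Tnfsf9, had an unadjusted p under 0.05 in each. Log2 fold changes were below 0 for 10 of 12 ligands (median −0.20) and for 11 of 25 receptors (median 0.02). Of all 19470 tested genes 9348 were below 0, with a median of 0.01. These genes are not separate results, since E5248 was lowest in 7 of the 12 ligands and 12 of the 25 receptors. Among ligands the values ran from −0.53 for Tnfsf9 to 0.20 for Tnfsf11, and included −0.29 for Eda, −0.33 for Tnfsf14 and −0.16 for Tnfsf13. Among receptors they ran from −0.29 for Ngfr to 0.28 for Tnfrsf10b. Ltbr, the lymphotoxin receptor, was at 29.1 CPM in E5248 and 48.7 CPM in E5231, and Fas, which carries a death domain, at 9.65 and 17.3 CPM in the same mice; their log2 fold changes were 0.09 and −0.12. Relt and Tnfrsf19, at −0.01 and 0.02, had the narrowest ranges among the receptors after Tnfrsf21 and Tnfrsf11a. The lymphocyte receptors Cd27, Cd40, Tnfrsf4, Tnfrsf8, Tnfrsf13b, Tnfrsf13c, Tnfrsf14, Tnfrsf18 and Tnfrsf25 had log2 fold changes from −0.26 to 0.28, and Tnfrsf11a, Tnfrsf11b and Eda2r from −0.12 to 0.11. Tnfrsf22, Tnfrsf23 and Tnfrsf26 are closely related neighbours on chromosome 7, and their values of 0.16, 0.14 and −0.19 are uncertain because reads may be shared.

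The other 9 superfamily genes, Tnfrsf9 among them, were too low to test. Tnfsf4 had 0 counts in all 8 mice, which allows at most 0.0975 CPM in the shallowest. Cd40lg had 0 to 3 counts, Fasl 5 to 16, Cd70 1 to 9, Tnfsf15 1 to 8, Tnfsf18 5 to 13, Tnfrsf17 4 to 10 and Edar 6 to 13. Most of these are genes of lymphocytes. T cell markers summed to 5.74 to 12 CPM per mouse with Trac as the most abundant, and B cell markers to 32.2 to 51.9 CPM with Ighm as the most abundant. All 7 B cell markers had a log2 fold change below 0 (median −0.35), and 5 of the 6 tested T cell markers had one above 0 (median 0.22; Lck had an unadjusted p of 0.0351). Of all 19470 tested genes, 9348 were below 0 and 10122 above. None of either list was called by the edgeR exact test, and the exact permutation test of the list means gave p = 0.343 for B cells and 0.629 for T cells. Of the other lists, endothelial markers summed to 188 to 277 CPM, with E5231 highest in 4 of 6, oligodendrocyte markers to 20950 to 23390 CPM, and fibroblast markers to 147 CPM in E5386 and 247 to 606 CPM elsewhere.

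**Figure D4:**
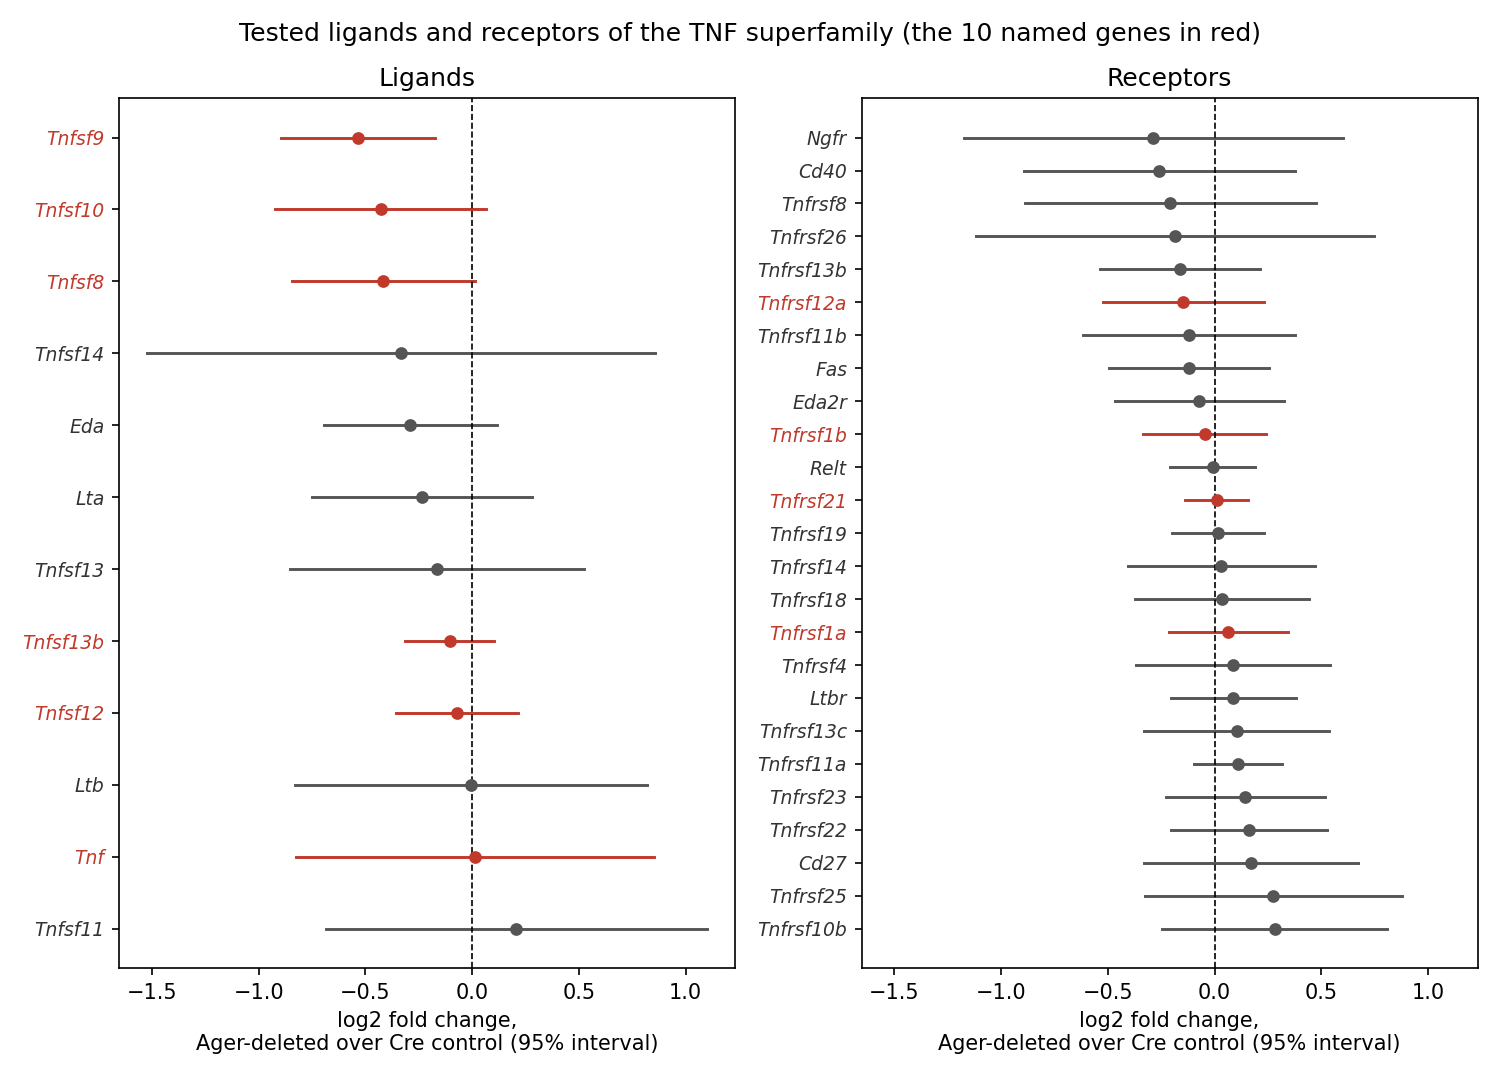
Log2 fold change (point) of Ager-deleted mice over Cre controls with its 95% interval (line) from the edgeR quasi-likelihood fit, for 12 ligands (left) and 25 receptors (right) of the TNF superfamily, the 10 genes in red. The interval of Tnfsf9, −0.90 to −0.17, is the only 1 of the 37 that does not reach 0, before any adjustment.

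Ngfr, the low-affinity neurotrophin receptor of Schwann cells and some neurons, had the widest range among the receptors above 1 CPM. It was at 15.1, 23.2, 14.6 and 16.9 CPM across Ager-deleted cords and at 5.42, 30.2, 25.2 and 24.5 CPM across control cords. The low control was E5386, and the other 3 controls were above every Ager-deleted mouse. Schwann cell markers, with Mal the most abundant of 7, summed to 745 CPM in E5386, 1055, 1126, 1806 and 1484 CPM in the Ager-deleted mice, and 1840, 1929 and 1543 CPM in the other controls. A sum is weighted to its most abundant gene. The mean of log2(CPM + 1) over the 7 genes was 3.7 in E5386 and 5.7 to 6.8 in the other mice. The log2 fold change of Ngfr was −0.29 ± 0.40 (SE) with all mice and −0.62 without E5386 (edgeR exact test, adjusted p = 0.0881), a setting added after the data were seen. How far Schwann cell content enters the difference was not tested.

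**Figure D5:**
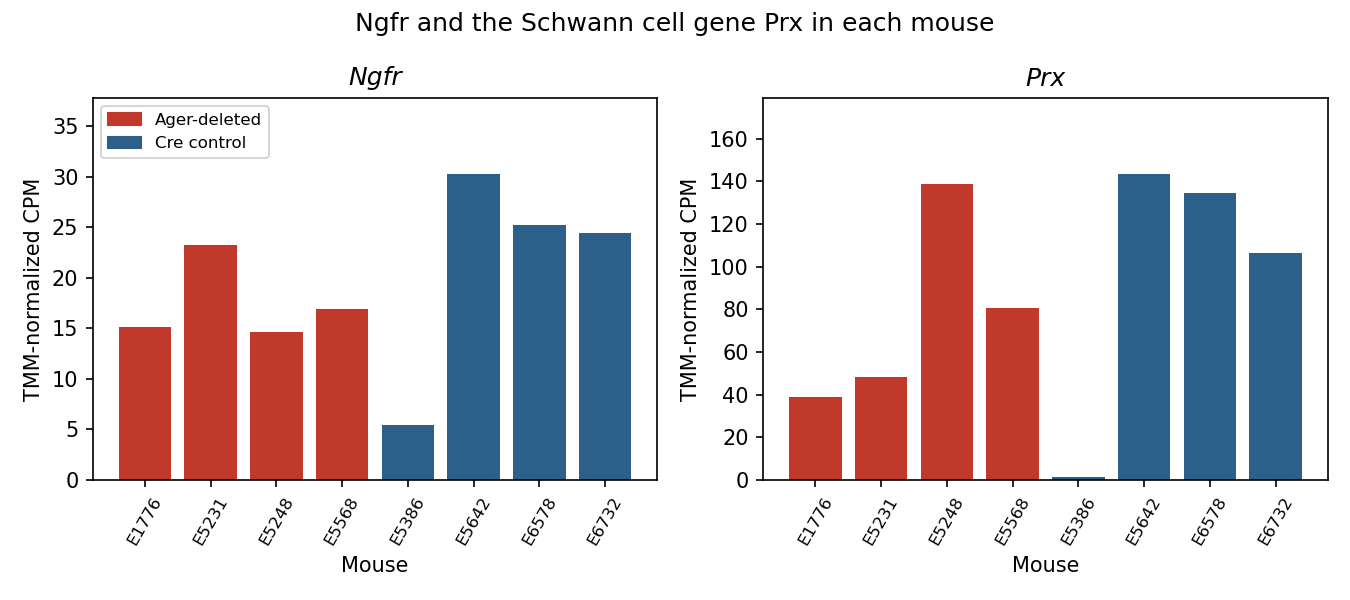
TMM-normalized CPM of Ngfr (left) and of the Schwann cell gene Prx (right) in each mouse, with red bars for Ager-deleted mice and blue bars for Cre controls. E5386 is lowest in both, at 5.42 CPM and 1.29 CPM.

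Downstream of the receptors, the list of processing enzymes, adaptors, NF-kB subunits and NF-kB targets held 57 genes, of which 55 were tested. None was called by the exact test or the quasi-likelihood test. The exact test gave an unadjusted p under 0.05 for 3 genes (Traf1, Rel and Ptgs2), against 4.26% of all tested genes. The quasi-likelihood test did so for 4 (these and Adam10). The groups did not overlap for 3 of the 55, against 3.88% of all tested genes. Traf1, an adaptor that is itself induced by NF-kB, was at 10.4, 12.2, 12 and 10.1 CPM across Ager-deleted cords and at 9.96, 8.34, 6.63 and 9.87 CPM across control cords. It was the 1 adaptor higher in all Ager-deleted mice, by a narrow margin over E5386 (log2 fold change 0.36 ± 0.14, SE; edgeR exact test, unadjusted p = 0.0326). Ikbkg, the regulatory subunit of the IkB kinase, was lower in all Ager-deleted mice at 51.3 to 55.5 CPM against 55.8 to 59.5 CPM. Its log2 fold change was −0.10 ± 0.06 (SE), with an unadjusted p of 0.217 in the edgeR exact test. Adam10, a sheddase, had a log2 fold change of −0.18 ± 0.08 (SE), and Tab2, the most abundant of the 29 processing enzymes and adaptors, of −0.08.

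Among the 5 NF-kB subunits, Rel had the smallest unadjusted p (0.0439 in the edgeR exact test), at 9.59 to 12.5 CPM in Ager-deleted mice and 11.9 to 14.5 CPM in controls, which overlap (log2 fold change −0.28 ± 0.11, SE). Rela and Nfkb1, the subunits of the classical dimer, had log2 fold changes of −0.06 and 0.05. Among the 23 tested NF-kB targets, 15 had a log2 fold change below 0, with a median of −0.04, and 17 were lowest in E5248. Of all 19470 tested genes 9348 were below 0, and 18.1% were lowest in E5248. Ptgs2, the inducible prostaglandin synthase, was at 1.3, 1.54, 1.69 and 1.16 CPM across Ager-deleted cords and at 1.94, 2.47, 1.92 and 1.95 CPM across control cords. The groups did not overlap, and the log2 fold change was −0.54 ± 0.17 (SE; edgeR exact test, adjusted p = 0.765). Il1b, another cytokine of activated myeloid cells, was at 0.705 CPM in E5248 and 2.71 CPM in E5386 (log2 fold change −0.52 ± 0.30, SE). Csf1 and Sod2, the most abundant targets, had log2 fold changes of −0.01 and −0.04.

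The genes whose pattern over the 8 mice was most like that of each of the 10 were found by Pearson's r of log2(CPM + 1), as a description. Named are the 3 with the highest r out of 16081 genes with a mean of at least 1 CPM. A search this wide over 8 mice returns high r for unrelated genes too, so the names are no evidence of a link. Any difference between the 8 libraries that touches many genes enters all of these values. Tnfrsf1a was most like Sp110, Cd52 and Oat (r = 0.99, 0.99 and 0.98), and Tnfrsf1b most like Ostf1, Fam129b and Gimap8 (0.99, 0.99 and 0.98). Tnfsf12 was most like Icam1, itself on the list of NF-kB targets (r = 0.98), then Sugct and Tusc1. Tnf was most like Ankrd40, Crnde and 0610040J01Rik (r = 0.98, 0.97 and 0.97), and Tnfsf8 most like Aim2, Riiad1 and Prob1 (0.98 each after rounding). Tnfsf9 was most like Tapt1, Gm20383 and Zfp24 (r = 0.97, 0.97 and 0.95). Tnfsf10 was most like Fbxo5, Gprc5c and Nlrp1b, and Tnfrsf12a most like Gm16675, Spop and Pla2g2f, all at r of 0.96 to 0.97. The 2 genes with the smallest range had the weakest partners, with Npb, Dsc3 and Capn11 for Tnfsf13b (r = 0.91, 0.90 and 0.90) and Sox8, Mfn2 and Lingo4 for Tnfrsf21 (r = 0.94, 0.93 and 0.92).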

How the data were processed

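RNA of the lumbar spinal cord of 8 mice, prepared with a stranded polyA kit, was sequenced. Per the labels and methods, the authors trimmed reads with Trimmomatic 0.36, aligned them to mm10 with STAR 2.7.3a, and deposited counts per gene from featureCounts (Subread 1.6.3) on a GENCODE annotation; the strand setting is not given in the sources used here. A second table the authors deposited holds log2 CPM after TMM normalization in edgeR (3.26.8 in the labels, 3.24.3 in the study's methods) and was not tested. Mice were grouped by genotype in the labels.

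The counts were filtered with filterByExpr (minimum count 10), normalized with TMM and compared with the edgeR 4.0.16 exact test (R 4.3.3), with Benjamini-Hochberg adjustment over all 19470 tested genes and a threshold of 0.05. The edgeR quasi-likelihood test was run beside it, and standard errors and 95% intervals come from that fit. Both tests were tested on simulated data, in which the exact test made more false calls than its nominal rate and than the quasi-likelihood test. Single values per mouse were compared by exact two-sided permutation of log2(CPM + 1). Lengths and positions come from GENCODE M21 (GRCm38), an earlier release than that of the authors, matched by symbol.

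The 10 genes, the gene lists and the tests were chosen with earlier results of these data known. Named were the 10 genes, Ager, the other tested superfamily genes, the 3 genes most like each of the 10, and from each other list the genes with an adjusted p under 0.05, those whose groups did not overlap, the 2 with the smallest p and the 2 most abundant; genes overlapping 1 of the 10 were named as well. Alternatives were other normalizations, filters, dispersions, tests (DESeq2 1.42.0, limma-voom in limma 3.58.1), pseudocounts, and left-out mice.

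The values of 2 marker genes are not reported here; both stay in the counts and sums of their marker lists.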

Additional observations from a re-analysis of the deposited data

Results flagged for a closer look

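In 102 groups of 4 mice (51 genes or marker lists in each genotype, on the log2(CPM + 1) scale), 11 had 1 mouse whose gap to the nearest other, as a share of the group's range, passed Dixon's 95% critical value, where chance gives about 1 in 20. Among the controls, E6578 was lowest for Tnfsf12 (share 0.976) and E5386 highest for Tnfrsf1a (0.863). E5386 was also lowest for Ngfr (0.871) and for the Schwann cell markers (0.895). Control E5642 was highest for Ltb (0.912), and control E6578 was highest for Cd27 (0.916) and lowest for Eda2r (0.951). Control E6732 was lowest for the astrocyte markers (0.867) and highest for the liver markers (0.973). Among the Ager-deleted mice, E5248 was lowest for Tnfrsf10b (0.834) and E5231 lowest for Tnfrsf18 (0.892).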

How the results depend on the processing

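None of the 10 genes, of the 37 superfamily genes or of the 55 pathway genes was called by an adjusted p of 0.05 under any alternative run, nor at 0.10 with all mice; without E5386 the adjusted p of Ngfr was 0.0881. Of 179 pairs of a gene and an alternative, 167 kept the direction of the log2 fold change. Tnfsf9 (−0.61 to −0.40), Tnfsf8 (−0.56 to −0.27), Tnfsf10 (−0.70 to −0.30), Tnfsf13b (−0.136 to −0.0446) and Tnfrsf12a (−0.313 without E5231 to −0.0077 without E5248) kept theirs in all, with adjusted p for Tnfsf9 of 0.396 to 1. The 12 reversals were in genes whose value with all mice was near 0, and their cause was not tested. The log2 fold change of Tnf was −0.14 with limma-voom and ran from −0.43 (without E5231) to 0.24 with 1 mouse left out. Without the controls E5386 and E5642 it was 0.25 for Tnf, −0.58 for Tnfsf10 and −0.045 for Tnfsf13b. Leaving out 1 mouse gave −0.16 to 0.026 for Tnfsf12, −0.063 to 0.17 for Tnfrsf1a, −0.17 to 0.057 for Tnfrsf1b and −0.032 to 0.048 for Tnfrsf21, which was −0.063 without the controls E5386 and E5642. Tnf, with 18 to 64 counts per mouse, did not pass the filter of at least 1 CPM in 4 mice and has no value there.

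The 14 calls over all genes became 8 with a filter of at least 1 CPM in 4 mice, 78 with common and tagwise dispersions, 1 with the quasi-likelihood test, 25 with DESeq2, 1 with limma-voom, 67 without the controls E5386 and E5642, and 48 at an adjusted p of 0.10. With 1 mouse left out they ranged from 3 (without E5231) to 98 (without E6578), with 8 without E5568 or E5642, 53 without E5248, 72 without E5386 and 89 without E6732. The cause was not tested. The permutation p of Ager was 0.0571 with library size only.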
